A study of Mus musculus with 8 samples.

Results

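Semaphorins, ephrins and their receptors are the main families of contact and short-range guidance signals. Semaphorins act through plexins, and the secreted class 3 semaphorins do so mostly together with the co-receptors Nrp1 and Nrp2. Ephrins bind Eph receptor tyrosine kinases on a neighbouring cell, and both partners pass a signal on. Ephrin-A ligands are held at the membrane by a lipid anchor, and ephrin-B ligands span it. In muscle these families guide motor axons to their targets, and Sema3a is released by muscle satellite cells during repair.

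The genes described here were chosen by name, from probe sets with 1 gene symbol in the array annotation. A gene was included when its symbol starts with Sema3 to Sema7, Plxn, Efna, Efnb, Epha or Ephb, or is Nrp1 or Nrp2. This gave 53 of 18194 genes on the arrays, called members here. They are 20 semaphorins, 9 plexins, 2 neuropilins, 8 ephrins, 13 Eph receptors and Plxna4os1, an antisense RNA gene of the Plxna4 locus that the name rule also takes in. Ephb2 was not analysed here.

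The study measured total RNA of mouse myotubes, multinucleated muscle cells formed by fusion, which its title calls primary. Of 4 RNAs, every one was put on a pair of arrays, type A and type B, which carry different probe sets. The wildtype RNA and the truncated Egr3 RNA both have a growth treatment in their labels. Egr3 is a zinc-finger transcription factor induced by activity, and muscle spindles need it to develop. The labels give no strain or age, do not say how the truncated protein was made or introduced, and do not say how many cultures went into an RNA. RNA275 carries an acclimatization treatment and RNA276 no treatment at all, so neither was placed in a group and their values are given singly. Since no label has a second RNA, differences have no replicate check and no p-value, and they describe these 4 RNAs.

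Values are deposited intensities on a linear scale, called signals here. Signals were floored at 67.6 on type A and 112.6 on type B before log2 was taken. A member counted as measured when 1 of the RNAs compared was above the floor. Where an RNA lay below the floor, the difference is a lower bound and is written as "at least". The technical SD of a log2 difference of wildtype minus truncated Egr3 was 0.18, from 100 probe sets that both types carry, and it holds no variation between cultures. On type A that difference was 0.14 higher than on type B. In such bulk RNA, fewer cells of a type and less RNA per cell cannot be told apart. Egr3 itself read 769 in wildtype, 830 in truncated Egr3, 1454 in RNA275 and 2627 in RNA276 on type A, and 1420, 1039, 1203 and 771 on type B. Its order over the RNAs thus differed between the types, and the labels do not say whether either probe set lies in the truncated part. The 3'/5' control ratio stayed within 1.05 to 1.19 (beta-actin) and 0.72 to 0.832 (Gapdh).

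All 10 myotube markers were above the floor in every RNA, and their signals summed to between 19355 and 22684. Of 8 neuron markers, Snap25, Stmn2, Elavl4 and Gap43 stayed below the floor in all 4 RNAs by either array type. Nefm passed it in 1 RNA, and Syt1, Nefl and Map2 were above it in all 4 by type B probe sets, with Syt1 between 188 and 246. Of 6 endothelial markers, Pecam1, Cdh5, Tek, Emcn and Tie1 stayed below it. Of 7 macrophage markers Csf1r alone passed it. Of 4 Schwann cell markers on the arrays, S100b and Mbp stayed below it and Sox10 and Erbb3 were above it in all 4 RNAs. Of 6 fibroblast markers 4 were above the floor in all 4 RNAs, with sums between 6975 and 8377, and Dcn among them was 2.02-fold higher in truncated Egr3 than in wildtype. Of 6 smooth muscle and pericyte markers 4 were above it, with sums between 4448 and 6054, highest in wildtype. The part of these cells in the members' differences was not tested.

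For each member the probe set with the highest mean signal was used, from type A whenever a type A probe set existed. By that choice 45 members were read on type A and 8 on type B. In the wildtype and truncated Egr3 RNAs 31 members were measured, and 36 were measured in at least 1 of the 4 RNAs. The other 17 stayed below the floor in all of them. Members had 124 probe sets in all, and 75 of these passed the floor in at least 1 RNA. For 20 members with probe sets on both types, the brightest one was on type B, so values of both are given where they bear on a result.

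The promoter windows below are shown because they belong to members with the clearest differences between RNAs, on either side. They are the 250 bases before the gene start, from RefSeq on GRCm38.p6, each 5′ to 3′ on the gene's strand. Capitals mark a match to the Egr zinc-finger consensus GCGNGGGCG, searched on both strands, with N standing for any base. The Efna3 window lies at chr3:89322940-89323189 on the minus strand, and Efna3 has another start whose window held no match. The Sema3g window lies at chr14:31217623-31217872 on the plus strand. The Sema3c window lies at chr5:17574566-17574815 on the plus strand, and the Epha3 window at chr16:63864176-63864425 on the minus strand.
Efna3: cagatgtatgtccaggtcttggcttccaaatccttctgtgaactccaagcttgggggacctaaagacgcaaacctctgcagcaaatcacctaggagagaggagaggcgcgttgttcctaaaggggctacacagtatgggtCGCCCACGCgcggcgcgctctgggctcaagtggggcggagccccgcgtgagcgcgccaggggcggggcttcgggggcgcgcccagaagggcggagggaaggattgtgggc
Sema3g: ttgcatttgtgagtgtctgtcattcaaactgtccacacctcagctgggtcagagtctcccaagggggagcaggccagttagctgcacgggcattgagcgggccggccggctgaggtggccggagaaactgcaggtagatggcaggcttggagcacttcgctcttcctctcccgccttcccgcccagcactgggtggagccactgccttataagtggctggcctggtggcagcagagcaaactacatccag
Sema3c: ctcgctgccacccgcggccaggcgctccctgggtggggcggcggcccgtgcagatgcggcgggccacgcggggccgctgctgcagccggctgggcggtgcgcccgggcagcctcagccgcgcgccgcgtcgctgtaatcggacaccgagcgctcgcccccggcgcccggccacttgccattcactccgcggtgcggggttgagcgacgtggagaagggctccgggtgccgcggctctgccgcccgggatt
Epha3: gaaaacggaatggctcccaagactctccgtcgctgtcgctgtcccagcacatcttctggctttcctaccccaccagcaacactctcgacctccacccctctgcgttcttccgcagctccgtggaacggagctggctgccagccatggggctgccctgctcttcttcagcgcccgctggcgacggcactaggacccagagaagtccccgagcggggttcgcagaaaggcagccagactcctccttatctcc
Of these 4 windows only that of Efna3 held the consensus, 110 bases before the start and on the opposite strand. The windows of Sema3g, Sema3c and Epha3 held no match, which says only that these letters are not there. The 4 windows printed had a GC content of 63.6% in Efna3, 60.4% in Sema3g, 78.4% in Sema3c and 62.8% in Epha3.

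Windows of 300 bases (250 before the start and 50 after) were found for 46 of the 53 members, 60 windows in all, and not for Sema3b, Sema3f, Sema6a, Plxna1, Plxna4, Plxna4os1 and Efnb3. The consensus occurred in 11 of the 60 windows, or 18.3%, each of a different gene. Among the windows of all genes on the arrays the share was 8.7%, and over every RefSeq window it was 5.55%. GC content moved with it, with a median of 64.0% in the members' windows, 58.3% for genes on the arrays and 52.7% in the whole table. Its part in the share was not tested. The matches upstream of members that passed the floor by any probe set are shown with 10 bases on either side. They lie at chr3:89323031-89323059 (Efna3), chr3:89279686-89279714 (Efna1), chr17:62881411-62881439 (Efna5), chr1:194619719-194619760 (Plxna2), chr15:89180787-89180815 (Plxnb2), chr10:94944844-94944872 (Plxnc1), chr19:44989192-44989220 (Sema4g) and chr15:32244739-32244767 (Sema5a). Plxna2, Sema4g and Sema5a are on the plus strand and the others on the minus strand.
Efna3: cagtatgggtCGCCCACGCgcggcgcgct
Efna1: gtcgggcgggGCGAGGGCGgggctggtgt
Efna5: cccctaccccCGCCCTCGCcgccgccacc
Plxna2: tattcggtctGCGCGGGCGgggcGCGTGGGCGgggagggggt
Plxnb2: ttctcccctgGCGGGGGCGgggccggcgg
Plxnc1: tccccgcgagCGCCCGCGCcgcacagagg
Sema4g: cacccttcccCGCCCCCGCctctggcccg
Sema5a: agggggcgggGCGGGGGCGgggcgaggcg
Plxna2 held 2 matches, 100 and 87 bases before its start, and the other 7 held 1 each. A match is a description of the letters and says nothing of binding. Of the 8 genes, only Efna3 was 2-fold apart between wildtype and truncated Egr3 by any probe set. The differences of Plxna2, Plxnb2 and Plxnc1 were 0.53, 0.13 and at least 0.02 in log2.

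The clearest differences between the wildtype and truncated Egr3 RNAs ran both ways. The secreted class 3 semaphorins Sema3b and Sema3f and the ephrin Efna3 were at least 2-fold higher in wildtype by their brightest probe set. Sema3g was at least 1.73-fold higher by its 1 probe set. These 4 genes had higher signals in wildtype and in RNA275 than in truncated Egr3 and RNA276. Sema3c and the receptor Epha3 had their highest signal in truncated Egr3, by 2.25-fold and 1.64-fold over wildtype by their brightest probe set. Of the 31 members measured, 13 had a floored difference below 1 technical SD and 14 one above 0.358 in log2, which is 2 technical SDs. Among the 13, the differences of Epha4, Ephb4, Plxna1, Plxnc1, Plxnd1 and Sema4d are lower bounds, so these genes may differ by more. The shares of all measured genes past these cut-offs were not computed, so the 2 counts show nothing particular to the members. Probe sets of 1 gene differed from each other with a larger SD, 0.50 in log2 for members and 0.39 for all genes.

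By the brightest type A probe set first, 1 of the 31 measured members was at least 2-fold higher in wildtype, against 1.13% of all measured genes. Of the same 31 members 0 were at least 2-fold lower, against 0.534% of all genes. The median log2 difference of the members was 0.03, and that of all measured genes -0.00. With the brightest probe set of either type, 36 members were measured. Of these, wildtype was 2-fold or more above truncated Egr3 in 3, against 1.12% of genes, and as far below it in 1, against 0.642%. Counting probe sets in place of genes gave 3 of 63 higher, against 0.962% of all measured probe sets, and 1 of 63 lower, against 0.766%. These counts rest on a few genes, namely Sema3b, Sema3f and Efna3 on the higher side and Sema3c on the lower side. By family, 12 of 20 semaphorins were measured with a median difference of -0.18, and 10 of 11 plexins and neuropilins with 0.08. Of the ephrins 4 of 8 were measured, with 0.10, and of the Eph receptors 5 of 13, with 0.16. Among these differences 3, 4, 1 and 2, in the same order of families, are lower bounds. The Eph receptor median is the value of Epha4, which is such a bound. With the brightest probe set of either type the medians of the semaphorins and the Eph receptors had the other sign, at 0.03 and -0.11, so neither family had a settled direction.

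**Figure D1:**
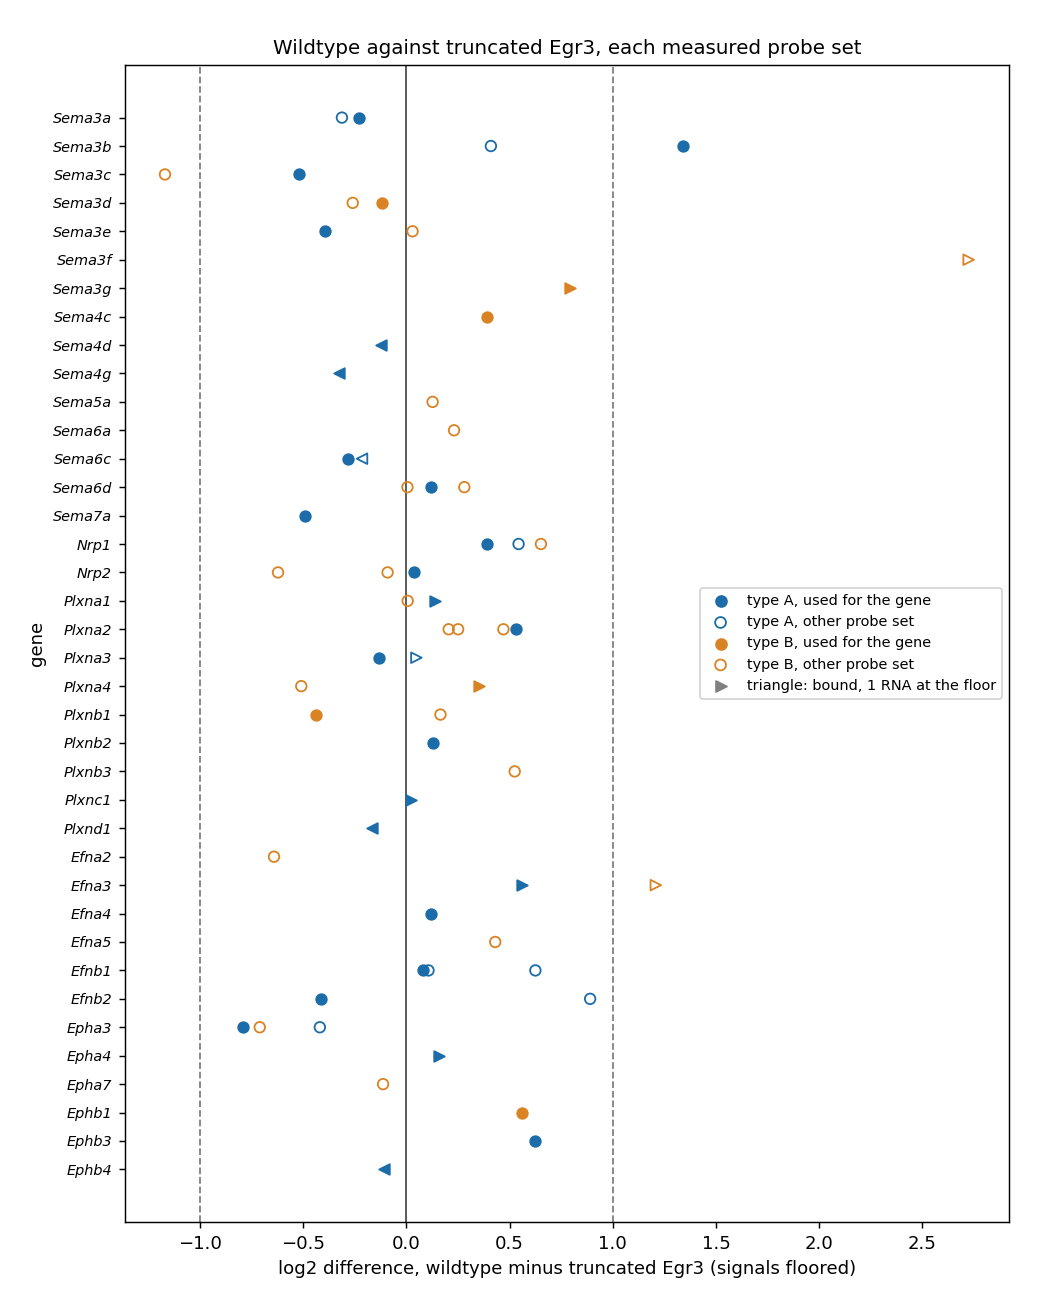
Log2 difference of wildtype minus truncated Egr3 for every measured probe set of the members, in rows by gene. Filled points are the probe set used for the gene, open points its others, blue is array type A and orange type B, triangles are bounds with 1 RNA at the floor, and dashed lines mark 2-fold. Sema3b, Sema3f and Efna3 pass the right line, Sema3c passes the left, and the other points lie between the lines.

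Sema3b, a secreted semaphorin, was the member 2-fold apart by the type A first choice. Its brightest probe set read 249 in wildtype, 98.2 in truncated Egr3, 333 in RNA275 and 114 in RNA276. That is 2.53-fold higher in wildtype than in truncated Egr3, a log2 difference of 1.34 that ranged from 1.28 to 1.37 over the scalings tried. The next probe set had a smaller difference of 0.41 in log2 and read 100.2, 75.4, 168 and 35.5 in the same order. The dimmest stayed below the floor in all 4 RNAs. In both measured Sema3b probe sets RNA275 was highest and wildtype next, and all 3 are of the kind shared by several transcripts of 1 gene.

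Sema3f, a secreted semaphorin that signals through Nrp2, had the largest difference by its type B probe set. That probe set read 744 in wildtype, 89.1 in truncated Egr3, 1007 in RNA275 and 132 in RNA276. Wildtype was thus at least 6.61-fold higher than truncated Egr3, at 2.72 or more in log2. Its name ends in _x_at, which marks probes that may also bind other transcripts. The 2 Sema3f probe sets on type A are dim and were below the floor in wildtype and truncated Egr3. Their signals were 37.3 and 48.3 in wildtype, 3.37 and 11.1 in truncated Egr3, 120 and 70.1 in RNA275, and 2.62 and 6.66 in RNA276. RNA275 was thus above the floor in all 3 probe sets, and wildtype in the type B one alone.

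Sema3g, a secreted semaphorin known from blood vessels, has 1 probe set here, on type B. It read 195 in wildtype, 69.0 in truncated Egr3, 367 in RNA275 and 58.3 in RNA276. Wildtype was at least 1.73-fold higher than truncated Egr3, and RNA275 at least 3.26-fold higher than RNA276. The wildtype and RNA275 signals were above the floor and the others below it.

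Efna3, a lipid-anchored ephrin, read 260 in wildtype, 45.7 in truncated Egr3, 378 in RNA275 and 59.4 in RNA276 on type B. Wildtype was at least 2.31-fold higher than truncated Egr3 there, at 1.21 or more in log2. The type A probe set gave 99.7, 44.3, 136 and 28.4, which is at least 1.48-fold for wildtype over truncated Egr3. Both probe sets put RNA275 first and wildtype next, with the remaining RNAs below the floor.

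The remaining class 3 semaphorins ran the other way or differed little. Sema3c, which steers neural crest cells into the heart's outflow tract, read 524 in wildtype, 1178 in truncated Egr3, 610 in RNA275 and 304 in RNA276 on type B. Truncated Egr3 was 2.25-fold higher than wildtype by that probe set, a log2 difference of -1.17. Its type A probe set read 87.0, 124.8, 77.5 and 59.0, a difference of -0.52. Truncated Egr3 was highest and RNA276 lowest by both.

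Sema3d read 709.8 in wildtype, 769 in truncated Egr3, 573 in RNA275 and 398 in RNA276, a log2 difference of -0.12 between wildtype and truncated Egr3. The other Sema3d probe set kept that order, at 254, 304, 221 and 92.2, with a difference of -0.26. Sema3a, which repels sensory and motor axons through Nrp1, read 132 in wildtype, 155 in truncated Egr3, 138 in RNA275 and 62.4 in RNA276. Both measured Sema3a probe sets had truncated Egr3 highest and RNA276 lowest, there below the floor, and a further probe set was below the floor in every RNA. Sema3e, which binds Plxnd1 directly, read 120.3, 158, 118 and 161 on type A, a difference of -0.40, and 397.5, 389, 327 and 322 on type B, a difference of 0.03. The sign of Sema3e thus depended on the probe set, while those of Sema3a, Sema3c and Sema3d did not. The Sema3d difference of -0.12 was still below 1 technical SD, and it ranged from -0.27 to -0.004 over the scalings.

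**Figure D2:**
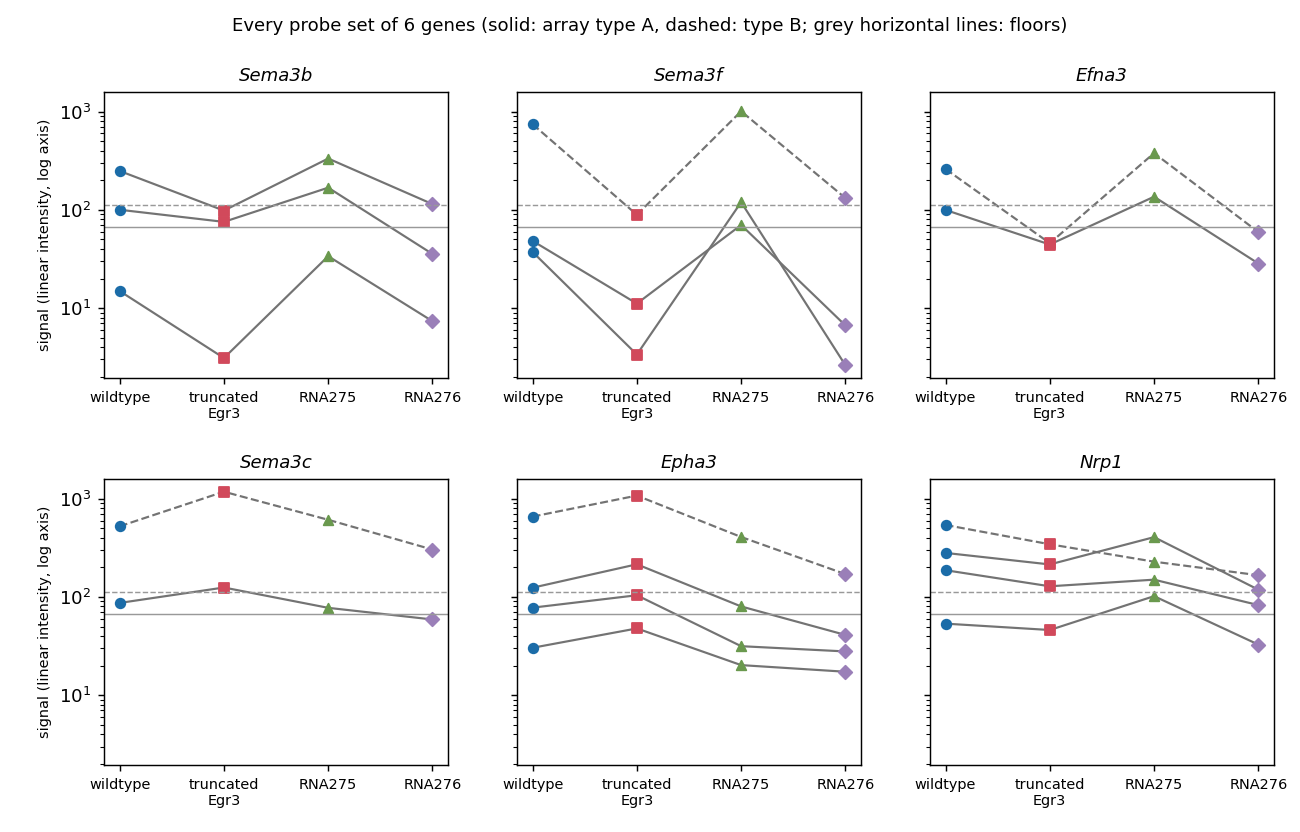
Signal of every probe set of Sema3b, Sema3f, Efna3, Sema3c, Epha3 and Nrp1 in the 4 RNAs, on a log axis; solid lines join the values of a type A probe set, dashed lines those of type B, and grey horizontal lines are the floors. The brightest probe set of the first 3 genes is high in wildtype and RNA275, dimmer ones lie partly or wholly below the floor, Sema3c and Epha3 are highest in truncated Egr3, and Nrp1 is lowest in RNA276. The genes were chosen after their values were seen.

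Of the membrane-bound semaphorins, Sema4c and Sema7a were more than 2 technical SDs apart between wildtype and truncated Egr3 and none was 2-fold apart. In the class 4 list 3 of 6 genes were measured and 0 were 2-fold apart, a count near the 1.13% and 0.534% of all genes. Sema4c, a ligand of Plxnb2, read 756 in wildtype, 577 in truncated Egr3, 887 in RNA275 and 719 in RNA276, a log2 difference of 0.39. Sema4d, a ligand of Plxnb1, read 64.5, 73.5, 77.0 and 56.6, all near the floor, and Sema4g read 65.02, 84.8, 44.3 and 21.6. Sema4a and Sema4b stayed below the floor by every probe set. Sema4f read at most 28.2 on type A and passed the type B floor in RNA276 alone, at 118, by a probe set ending in _x_at.

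Of class 6, which are transmembrane, Sema6c read 196 in wildtype, 239 in truncated Egr3, 137 in RNA275 and 180 in RNA276, a log2 difference of -0.28. Sema6d, a ligand of Plxna1, read 766, 631, 1263 and 318 by its brightest probe set, which is on type B. RNA275 was 3.97-fold above RNA276 there, while wildtype and truncated Egr3 differed by 0.28 in log2. Its type A probe set had the same order, at 85.3, 78.4, 90.9 and 54.5. The 2 remaining Sema6d probe sets did not keep that order, and RNA276 was highest in 1 of them, at 155. Sema6a passed the type A floor in RNA276 alone, at 68.8, and read 333, 284, 341 and 396 on type B. Sema6b stayed below the floor in all 4 RNAs.

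Sema7a, a lipid-anchored semaphorin that binds Plxnc1 and integrins, read 137 in wildtype, 193 in truncated Egr3, 119 in RNA275 and 116 in RNA276. The log2 difference was -0.49. Of the class 5 genes, Sema5a was below the floor on type A and read 317, 290, 217 and 119 by a type B probe set. Sema5b was below the floor by all its probe sets.

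None of the 10 measured plexin and neuropilin genes was 2-fold apart between wildtype and truncated Egr3, which is near the 1.13% and 0.534% of all genes given above. Their median log2 difference was 0.08, with 4 of the 10 differences lower bounds. Nrp1, the co-receptor of Sema3a and of vascular endothelial growth factor, varied most. It read 281 in wildtype, 214 in truncated Egr3, 406 in RNA275 and 119 in RNA276, so that RNA275 was 3.42-fold above RNA276. Wildtype was above truncated Egr3 in all 3 measured Nrp1 probe sets, at 0.39, 0.54 and 0.65 in log2, and RNA276 was lowest in each of these. The type B probe set put wildtype first, at 540.3, with RNA275 at 229. Another type A probe set also put wildtype first, at 187, with RNA275 at 150. Of these 3 probe sets only the brightest on type A had RNA275 highest, so the place of RNA275 depended on the probe set.

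Nrp2, the co-receptor of Sema3f, read 148 in wildtype, 144 in truncated Egr3, 123 in RNA275 and 100.2 in RNA276. Its log2 difference of 0.03 became -0.03 with equal array medians, and 2 type B probe sets gave -0.62 and -0.09. The sign of Nrp2 was therefore not settled, and no Nrp2 probe set was 2-fold apart between the labelled RNAs.

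Among the A plexins, which pair with neuropilins, Plxna2 read 215 in wildtype, 149 in truncated Egr3, 152 in RNA275 and 162 in RNA276. All 4 Plxna2 probe sets were higher in wildtype than in truncated Egr3, at 0.53, 0.20, 0.25 and 0.47 in log2. Plxna3 read 209, 229.9, 119 and 140.5, with the labelled RNAs above both others. Plxna1 read 1004, 999, 1098 and 988 by its type B probe set, the smallest range, 1.11-fold, of the member probe sets above the floor in all 4 RNAs. Plxna4 passed the floor on type B, but its 2 probe sets had opposite signs, at 0.35 or more and -0.51.

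Of the B plexins, which are receptors of class 4 semaphorins, Plxnb2 read 699 in wildtype, 638 in truncated Egr3, 478 in RNA275 and 509.98 in RNA276. Plxnb1 read 325, 440.0, 406 and 616, a log2 difference of -0.44, but its other probe set gave 0.17 with RNA276 lowest at 194. Plxnb3 was below the floor on type A and read 170, 118, 292 and 40.4 on type B. The name of that type B probe set ends in _s_at, a kind that may also bind other transcripts. Plxnc1, the Sema7a receptor, read 68.7, 40.3, 121 and 45.0, and Plxnd1, the Sema3e receptor, read 64.1, 75.9, 73.5 and 55.0, both close to the floor.

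Of the ephrins other than Efna3, none was 2-fold apart between wildtype and truncated Egr3. Efna5, a ligand that shapes topographic maps of axons, was below the floor on type A and read 700.4 in wildtype, 519.7 in truncated Egr3, 1008 in RNA275 and 594 in RNA276 on type B. That is 1.35-fold between the labelled RNAs. Efna2 read 154, 241, 47.1 and 166 on type B, a log2 difference of -0.64, with RNA275 lowest. Efna4 read 79.8, 73.4, 70.6 and 58.0. Efna1 passed the floor in RNA275 alone, at 69.5.

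The transmembrane ephrins Efnb1 and Efnb2 were above the floor in all 4 RNAs. Efnb1 read 167 in wildtype, 158 in truncated Egr3, 258 in RNA275 and 142 in RNA276, and its 3 probe sets gave log2 differences of 0.08, 0.11 and 0.63. Efnb2 read 151, 202, 275.998 and 229, with RNA275 highest. Its log2 difference was -0.41 by that probe set and 0.89 by the next, so its sign was not settled. Efnb3 stayed below the floor.

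Of the Eph receptors 5 of 13 were measured in wildtype and truncated Egr3 and 0 were 2-fold apart, against 1.13% of all genes higher and 0.534% lower, so that a count of 0 is near the background. Epha3, which binds ephrin-A5, read 124 in wildtype, 215 in truncated Egr3, 80.1 in RNA275 and 41.1 in RNA276. The type B probe set read 658, 1076, 408 and 171, a log2 difference of -0.71 beside -0.79 on type A. In the 3 measured Epha3 probe sets truncated Egr3 was first and wildtype next. RNA275 followed and RNA276 was last in the pair given above, while in the third probe set both were below the floor. The highest and lowest RNA were 6.30-fold apart on type B. Epha4, which binds ephrins of both classes, was near the floor on type A at 75.4, 51.6, 68.6 and 42.1, and its type B probe set passed the floor in RNA275 alone, at 218.

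Ephb1, a receptor of transmembrane ephrins, read 248 in wildtype, 169 in truncated Egr3, 582 in RNA275 and 266 in RNA276. The log2 difference between the labelled RNAs was 0.56, and RNA275 stood above the other three. Ephb3 read 231, 150.0, 189 and 140.2, which is 1.54-fold higher in wildtype than in truncated Egr3. Ephb4, the receptor of ephrin-B2, read 56.0, 72.9, 58.4 and 76.9. Epha2, an Eph receptor of epithelial and dividing cells, was below the floor in the labelled RNAs, at 50.9 and 34.4, and read 208 in RNA275 and 70.1 in RNA276. Ephb6, whose kinase domain is inactive, passed the floor in RNA275 alone, at 68.0.

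Epha1, Epha5, Epha6, Epha8, Epha10 and Plxna4os1 were below the floor in every RNA by each of their probe sets. Epha7 read 158, 170, 147 and 139.9 on type B and was below the floor on type A. A signal below the floor does not show that a transcript was absent.

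**Figure D3:**
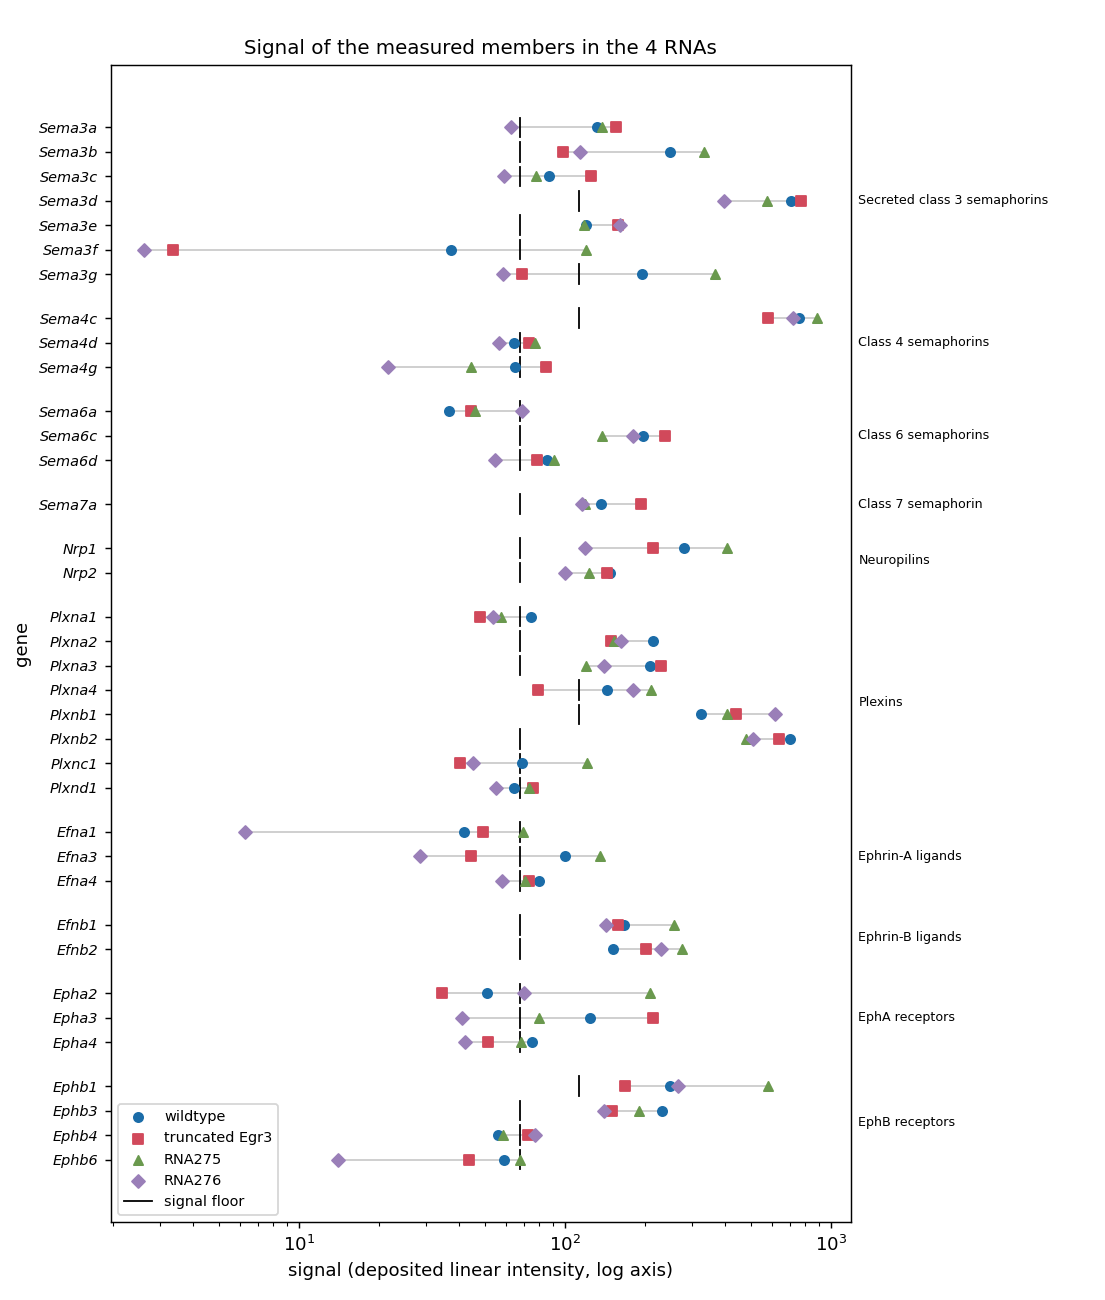
Signal of the 36 measured members in the 4 RNAs, by the probe set used for each gene, on a log axis and grouped by family; black ticks are the floor of the array type and a grey line joins the lowest and highest RNA. Sema3b, Sema3g, Nrp1, Ephb1 and Epha2 have RNA275 at the right end, and Epha3 has truncated Egr3 there. Signals of different genes come from different probe sets and are not comparable with each other.

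Across the 4 RNAs 8 of the 36 measured members had their highest and lowest signal at least 2-fold apart, against 14.8% of all measured genes. The 8 were Sema3a, Sema3b, Sema3g, Nrp1, Efna3, Epha2, Epha3 and Ephb1. By the brightest probe set of either type the count was 14 of 42, against 15.7%, with Sema3c, Sema3f, Sema5a, Sema6d, Plxnb3 and Efna2 added. The probe sets of Sema3f and Plxnb3 are of kinds that may also bind other transcripts. Taking the brightest probe set of either type thus moved this count more than the scaling did, under which it was between 8 and 10. The other choices of probe set moved it less, to 7 with the median over a gene's probe sets and 6 without marked probe sets.

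RNA275 was the highest RNA in 16 of the 36 members, against 25.9% of all genes, and RNA276 the lowest in 20, against 28.5%. By the brightest probe set of either type the counts were 19 of 42, against 26.2%, and 22 of 42, against 27.6%. Wildtype and RNA275 were the highest pair in 13 of 36 members, against 16.3% of genes, and in 14 of 42 by the other choice, against 15.9%. Of the 16 members above the floor in all 4 RNAs, RNA275 was highest in 6, against 24.6%, and RNA276 lowest in 6, against 26.9%. The other 20 of the 36 members had at least 1 RNA below the floor, where signals have no reliable order. Of these, 5 passed the floor only in RNA275 or RNA276. Efna1, Sema3f and Ephb6 passed it in RNA275 alone and Sema6a in RNA276 alone, so the filter fixed their highest RNA. The shares of all genes were counted with the same filter. RNA276 also had the lowest median signal of the type A arrays, 59.3 against 64.2 to 69.2, and with equal medians it was lowest in 15 members while the share of all genes became 20.6%. The 4 Schwann cell markers summed to 695 in wildtype, 554 in truncated Egr3, 894 in RNA275 and 525 in RNA276. Most of that sum is Erbb3, which read 583, 426, 740.5 and 398, so that wildtype and RNA275 were the higher pair, as for Sema3b, Sema3f, Sema3g and Efna3. Sox10 read 87.0, 85.6, 118 and 85.2, with little difference between wildtype and truncated Egr3. S100b and Mbp stayed below the floor, so the order of the sum rests on Erbb3. In bulk RNA, Schwann cells and the myotubes themselves cannot be told apart as the source of Erbb3 RNA. The 8 neuron markers summed to 357 in RNA275 and to between 188 and 252 in the other RNAs by the type A probe sets, and to 985 and to between 690.2 and 804.5 by the brightest of either type. The part of either in the members' order, or in the differences of these 4 members, was not tested.

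**Figure D4:**
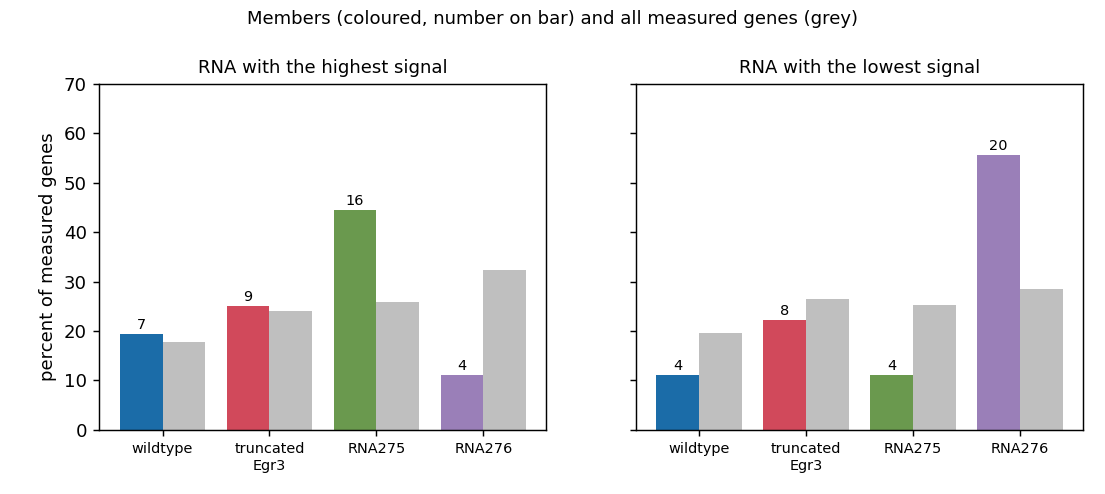
Percent of genes whose highest signal (left) or lowest signal (right) fell in each of the 4 RNAs; coloured bars are the 36 measured members, with their number on the bar, and grey bars all measured genes. RNA275 holds the highest signal in 16 members and RNA276 the lowest in 20. Some of these members passed the floor in RNA275 alone, which fixed their highest RNA.

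Other probe sets of the same member did not always give the same sign. In 18 members the chosen probe set and at least 1 other were measured in wildtype and truncated Egr3, and in 12 of them all had 1 sign. Over pairs the share of the same sign was 72.0%, or 18 of 25, and over all genes 60.8% of 7247 pairs. The SD of the difference between probe sets was 0.50 in log2 for members and 0.39 for all genes, and pairs of 1 gene share samples.

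The listed signalling partners of these families were counted in the same way. Of 34 listed semaphorin signalling partners 24 were measured, 0 were 2-fold apart in either direction, against 1.13% of all genes higher and 0.534% lower, and their median log2 difference was 0.11. Rnd1, a small GTPase that binds plexins, read 253 in wildtype, 163 in truncated Egr3, 504 in RNA275 and 249.7 in RNA276. Rras, the GTPase that plexins switch off, read 360.3, 549.8, 224 and 413, a difference of -0.61. Of 28 listed ephrin and Eph signalling partners 21 were measured, 0 were 2-fold apart, against the same shares, and the median was -0.06, or 0.11 with the brightest probe set of either type. Crk, an adaptor protein of Eph signalling, read 452, 685, 523 and 509.6, a difference of -0.60. At those shares, counts of 0 in lists of this length say nothing particular to the partners. These 3 genes, of 45 partners measured, were those at least 1.5-fold apart, and the largest of their differences was 0.64, that of Rnd1. Of 10308 genes measured, 473 were at least 1.5-fold higher in wildtype and 484 as far lower. The 3 partners thus do not stand out from all genes by their number.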

How the data were processed

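The authors deposited 1 intensity per probe set on a linear scale for each of 8 arrays, as series tables. Which software computed them, and how it normalized them, is not stated by the labels. Trimming 2% of probe sets at each end left a mean of 150.0 on all 8 arrays, so the deposited intensities already shared a scale, which was kept. Gene names came from the platform annotation, in which 20393 of 22690 type A and 14674 of 22575 type B probe sets have 1 symbol.

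The floor was a percentile of the signals on the arrays of the labelled RNAs, the 50th on type A and the 60th on type B. Differences are of log2 floored signals, and folds of 2 and 1.5 were counted. Members and gene lists were chosen with earlier results of these data known. All members are accounted for; members 1.5-fold apart between the labelled RNAs, 2-fold apart over the 4 RNAs or measured in all of them are given with 4 values, and others where a further probe set passed the floor. Of the partners, those 1.5-fold apart are named. The Egr consensus was searched in RefSeq promoter windows. Alternatives were quantile normalization, equal medians, loess (span 0.3), lower, higher and no floors, thresholds of 1.5-fold and 3-fold, and 3 other choices of probe set; counting all probe sets, and the counts of the highest and lowest RNA, were added after seeing the data. The counting was tested on simulated data, with large changes planted in genes well above the floor. That checks the code and says nothing of dim members or of differences near the thresholds. The number of arrays limits the precision. Python 3.11.15, numpy 2.4.6, pandas 2.3.3, statsmodels 0.14.6 and matplotlib 3.10.9 were used.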

Additional observations from a re-analysis of the deposited data

Results flagged for a closer look

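In RNA275, which belongs to no group, 2 of the 36 measured members were more than 2-fold above whichever labelled RNA was higher. The share of all genes that did the same was not computed, and RNA275 was the highest RNA in 25.9% of them. The count therefore shows nothing particular to the members. Epha2 was at least 1.63 above it in log2, with both labelled RNAs below the floor, and Ephb1 was 1.23 above it. Each has 1 probe set here, so neither has another reading.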

How the results depend on the processing

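The number of members at least 2-fold higher in wildtype was 1 as reported and with quantile normalization, equal medians, loess and the higher floor. It was 3 with the lower floor, 7 with no floor, 3 with the brightest probe set of both types, 3 at a 1.5-fold threshold and 0 at 3-fold. It was 0 with the median over a gene's probe sets, and 0 without marked probe sets, since every Sema3b probe set is marked. The number at least 2-fold lower was 0, except for 1 with the brightest probe set of both types and 1 at 1.5-fold. The number 2-fold apart over the 4 RNAs was 8 as reported, 20 with no floor, 14 with the brightest probe set of both types and 21 at 1.5-fold. It was 12 with the lower floor, 6 with the higher floor, 6 without marked probe sets, 7 with the median over probe sets, 6 at 3-fold, and between 8 and 10 under the scalings. Floors and thresholds act on these counts by construction, and the cause of the other changes was not tested. The median of the members stayed between -0.04 and 0.11 over the settings. RNA276 was lowest in 20 members as reported and in 12 with the higher floor. Of 255 member differences recomputed, 28 moved by more than the technical SD, and 4 had another sign. These were Nrp2, at -0.03 with equal medians and -0.62 with the brightest probe set of both types, Sema3e, at 0.03 with that choice, and Efnb2, at 0.39 with the median over its probe sets. No replicate could be left out, with 1 RNA per label. The floor limits what can be read of dim members, and no change between cultures could be measured.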

Other observations

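Sema3b and Sema3f lie near each other on the same chromosome in the RefSeq table, with 3 genes between them. Gnai2, the 1 of these 3 above the floor in all 4 RNAs, read 748 in wildtype, 848 in truncated Egr3, 907 in RNA275 and 946 in RNA276, a log2 difference of -0.18. Slc38a3 read 63.0, 68.2, 42.7 and 39.4 and Gnat1 stayed below the floor in every RNA by the probe set used. Gnai2 thus had neither the order of the RNAs nor the direction of Sema3b and Sema3f. These genes were chosen after the values of Sema3b and Sema3f were seen.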
